A study of Mus musculus with 12 samples.

Results

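The transcripts described here are the granzymes Gzma, Gzmb, Gzmc, Gzmd, Gzme, Gzmf, Gzmg and Gzmk and the perforin gene Prf1, 9 of the 55401 genes in the deposited expression table, each chosen by its symbol. All 9 were found, and all 9 passed the filter on low values, which asked for 1 FPKM or more in 3 or more libraries, as did 15813 genes in all. RNA was sequenced from orthotopic oral tumours of C57BL/6 mice injected with oral cancer cells that the protocol in the labels calls MTC-Q1 and the sample titles Q1-2 (in the study's methods, a luciferase-expressing subline of MTC-Q1), in 12 libraries, 3 from each of 4 groups. Mice of the Ctrl-IgG group were given control IgG, those of the aCSF1R group an antibody that targets CSF1R, the growth factor receptor of macrophages, those of the IL-10-Fc group the cytokine interleukin-10 carried on an Fc part, and those of the BF10 group a protein that unites interleukin-10 with the CSF1R antibody. By label, all groups share one tumour line and the start of treatment, once tumours had reached 100 mm3. The treatment protocol in the labels gives 6 doses, while the series design and the study's RNA sequencing methods give 4. The mice were bought at 6 to 8 weeks of age. The comparisons set the combined protein against control IgG and against each of its components.

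Perforin and the granzymes are the cargo of the cytotoxic granules of killer T cells and natural killer (NK) cells. After the granule is released against a target cell, perforin forms pores through which granzymes, a family of serine proteases, enter and cleave proteins that lead to cell death. Granzymes A and B are the most widely studied, granzyme K is made mainly by memory-like T cells, and granzymes C to G are rodent genes beside Gzmb that are known from strongly stimulated killer cells and from NK cells of the pregnant uterus.

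The mean levels of perforin and of every granzyme but Gzmk were several times lower in the tumours given either interleukin-10 protein than in the tumours given control IgG or aCSF1R. Over the members, 7 of 9 were called lower with BF10 than with Ctrl-IgG and 8 of 9 with IL-10-Fc than with Ctrl-IgG (limma, with a Benjamini-Hochberg adjusted p below 0.05 and a change of 1.5-fold or more). Gzma, whose BF10 mean was 3.46-fold lower, was not called with BF10 (limma adjusted p 0.143). Among all tested genes 13.2% and 23.6% were called lower in these comparisons. None of the 9 was called between aCSF1R and Ctrl-IgG or between BF10 and IL-10-Fc. Granzymes C to G made up most of the granzyme RNA in every library, and Gzmk, the member at the lowest level in every group mean, was called in no comparison.

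The libraries also split along the same line in genes of sex, strain and tumour tissue. Xist, from the inactive X chromosome, reached 0.04 FPKM at most in the 6 libraries of Ctrl-IgG and aCSF1R (the side without interleukin-10) and was 17.1 FPKM or more in the 6 of IL-10-Fc and BF10 (the interleukin-10 side). H2-Ea, an MHC class II gene that C57BL/6 mice are known not to express, reached 0.27 FPKM at most in the former and was 553 FPKM or more in the latter. The simple-epithelium keratins Krt8, Krt18, Krt19 and Krt7 summed to between 0.29 and 0.77 FPKM against between 560 and 1510 FPKM. In Ctrl-IgG replicates 1 and 2 and aCSF1R replicate 3 the squamous keratins Krt5 and Krt14 were also at most 0.17 FPKM, so these 3 libraries lacked the keratin markers of the labelled oral carcinoma. In Ctrl-IgG replicate 3 and aCSF1R replicates 1 and 2 squamous keratinocyte markers summed to between 1487 and 2020 FPKM. Muscle markers were high there too, at between 755 and 1220 FPKM. Whether those keratins came from carcinoma or from other tissue was not tested. BF10 replicate 3 carried 3.29 FPKM of the Y-linked Eif2s3y and 111 FPKM of Rhox5, a homeobox gene that was 575 FPKM or more in every Ctrl-IgG and aCSF1R library and 20.6 FPKM or less in the remaining 5. Treatment and the source of the tissue therefore cannot be told apart wherever Ctrl-IgG or aCSF1R is set against IL-10-Fc or BF10. Ctrl-IgG against aCSF1R, and IL-10-Fc against BF10, are comparisons within a side. Neither is even in tissue. In the first, the squamous and muscle transcripts were high in replicate 3 of Ctrl-IgG but in replicates 1 and 2 of aCSF1R. In the second, BF10 replicate 3 carried transcripts typical of the other side. Rhox5, Prl2c2 and Prl2c3 together summed to 88.3, 2.21 and 291 FPKM in BF10 replicates 1 to 3. In IL-10-Fc they summed to between 9.42 and 28.3 FPKM.

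Depth was estimated from the steps between low values at between 22700000 and 33900000 reads per library, so that 1 read in a transcript of 900 bases was worth between 0.0357 and 0.0533 FPKM. FPKM sums ran from 637596 to 976950, and the 4 libraries with the highest sums (IL-10-Fc replicates 1 and 2, replicate 1 of BF10 and replicate 2 of Ctrl-IgG) held between 6.57% and 9.04% mitochondrial transcripts against between 2.99% and 3.61% in the others.

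Perforin, the pore-forming protein (Prf1, ENSMUSG00000037202, chr10:61297833-61304680 in GRCm38, plus strand), was 57.45, 11.2 and 18.8 FPKM in replicates 1 to 3 of Ctrl-IgG, and those of aCSF1R had 43.5, 49.8 and 51.2 FPKM. In IL-10-Fc it was 0.95, 0.82 and 2.98 FPKM, and the BF10 replicates had 1.25, 4.31 and 10.1 FPKM. Every IL-10-Fc and BF10 library was under every library of the other groups, although BF10 replicate 3 came within about 1 FPKM of Ctrl-IgG replicate 2. On the log2(FPKM + 1) scale, which understates the change of low genes, Prf1 fell by 2.24 (SE 0.64) with BF10 and fell by 3.32 (SE 0.64) with IL-10-Fc against Ctrl-IgG (limma adjusted p 0.0249 and 0.00262). The BF10 call was lost without Ctrl-IgG replicate 1 (adjusted p 0.0964), without BF10 replicate 1 (0.0783) and without BF10 replicate 2 (0.0665), with changes between -1.60 and -2.27. The ratio of Prf1 to Gzmb was between 0.0436 and 0.0908 in the 4 libraries with the highest FPKM sums and between 0.272 and 0.457 in the others, and without those 4 libraries, which leaves 2 libraries each of Ctrl-IgG and BF10 and a single IL-10-Fc library assumed to vary like the other groups, Prf1 fell by 2.14 with BF10 and fell by 3.09 with IL-10-Fc.

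Granzyme B, which cleaves after aspartate and activates caspases (Gzmb, ENSMUSG00000015437, chr14:56258838-56262260, minus strand), was 165, 123 and 57.0 FPKM in Ctrl-IgG, and aCSF1R had 127, 126 and 152 FPKM. In IL-10-Fc it was 14.7, 18.8 and 8.95 FPKM, and in BF10 25.2, 9.44 and 37.3 FPKM. Both interleukin-10 groups lay wholly under both other groups. Gzmb fell by 2.28 (SE 0.50) with BF10 and fell by 2.87 (SE 0.50) with IL-10-Fc against Ctrl-IgG on the log2 scale, with limma adjusted p-values of 0.00662 and 0.00147. As a ratio of group means, Gzmb was 4.81-fold and 8.13-fold lower.

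Granzyme A, a protease that cleaves after basic residues (Gzma, ENSMUSG00000023132, chr13:113093825-113100981, minus strand), had the largest standard error of the 9. It was 105, 56.8 and 16.9 FPKM in Ctrl-IgG, 79.7, 61.2 and 158 FPKM with aCSF1R, 11.4, 7.48 and 2.12 FPKM in IL-10-Fc, and 16.3, 3.42 and 32.1 FPKM in BF10. BF10 replicate 3 was above Ctrl-IgG replicate 3, so these groups overlapped. Gzma differed from Ctrl-IgG by -1.81 with BF10 (SE 0.83, limma adjusted p 0.143, not called) and fell by 2.79 with IL-10-Fc (SE 0.83, adjusted p 0.0246). That second call was lost in 7 of 15 alternative analyses, among them those without Ctrl-IgG replicate 1 (adjusted p 0.103), Ctrl-IgG replicate 2 (0.0562), IL-10-Fc replicate 2 (0.0536) or IL-10-Fc replicate 3 (0.0562).

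Granzyme K, a close relative of granzyme A that lies 70.6 kb from it (Gzmk, ENSMUSG00000042385, chr13:113171608-113225908, minus strand), was the exception. It was 0.35, 0.51 and 0.19 FPKM in Ctrl-IgG, 0.44, 0.22 and 0.28 FPKM with aCSF1R, 1.58, 1.36 and 0.38 FPKM in IL-10-Fc, and 2.40, 0.65 and 0.76 FPKM in BF10. The 3 BF10 libraries were above all 6 Ctrl-IgG and aCSF1R libraries, whereas IL-10-Fc replicate 3 lay among them. The 3 libraries at 1 FPKM or more were replicate 1 of BF10 and replicates 1 and 2 of IL-10-Fc, which are also among the 4 libraries with the highest FPKM sums, and Gzmk passed the filter only through these. Its difference from Ctrl-IgG was 0.68 (SE 0.31) with BF10 and 0.60 (SE 0.31) with IL-10-Fc, with limma adjusted p-values of 0.138 and 0.153. With the log2 FPKM sum as a covariate Gzmk was called higher with BF10 (0.73, limma adjusted p 0.0029). Without IL-10-Fc replicate 3 it was called higher with IL-10-Fc (0.88, adjusted p 0.0307). Neither of these alternative calls is evidence of a rise, since Gzmk entered the test through its high values in these same groups. Between 5 and 59 estimated reads stood behind each value.

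Granzymes C, D, E, F and G lie on the minus strand of chromosome 14 within 144.6 kb, in the order Gzme, Gzmd, Gzmg, Gzmf, Gzmc and Gzmb along the forward coordinate. Their transcripts are alike in sequence. The aligned bases of Gzmd, Gzme, Gzmf and Gzmg were identical at between 86.9% and 94.8%, against between 76.2% and 77.5% for Gzmc with these 4 and between 73.2% and 77.0% for Gzmb with the 5. Stretches of 75 bases, the length of a read, were shared with another gene at 5.73% of positions in Gzmd, 4.75% in Gzme and 6.83% in Gzmg, and at 0% in Gzmb, Gzmc, Gzmf, Gzma, Gzmk and Prf1. The split of reads among Gzmd, Gzme and Gzmg is thus less certain than the values of the other 6.

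Gzmf, the most abundant member in Ctrl-IgG, aCSF1R and BF10 by group mean (ENSMUSG00000015441, chr14:56205263-56211417), was 469, 406 and 172 FPKM in Ctrl-IgG, 329, 307 and 420.2 FPKM with aCSF1R, 31.98, 42.6 and 18.8 FPKM in IL-10-Fc, and 33.9, 14.4 and 55.5 FPKM in BF10. Ctrl-IgG replicate 3 was the lowest of the 6 higher libraries and still over 100 FPKM above the highest of the 6 lower ones. Gzmc, a protease of the same cluster that has been linked to caspase-independent killing (ENSMUSG00000079186, chr14:56231441-56234656), was 340.0, 306 and 164 FPKM in Ctrl-IgG, 233, 215 and 269 FPKM with aCSF1R, 37.6, 26.2 and 16.6 FPKM in IL-10-Fc, and 25.5, 14.5 and 37.7 FPKM in BF10. The gap between the sides was the widest here, from 37.7 FPKM in BF10 replicate 3 up to 164 FPKM in Ctrl-IgG replicate 3.

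Gzmd (ENSMUSG00000059256, chr14:56129556-56132608) was 297, 241 and 98.5 FPKM in Ctrl-IgG, 218, 224 and 279 FPKM with aCSF1R, 33.9, 29.9 and 15.5 FPKM in IL-10-Fc, and 19.3, 14 and 38.7 FPKM in BF10. Gzmg (ENSMUSG00000040284, chr14:56156582-56159579) was 353, 353 and 102 FPKM in Ctrl-IgG, 275, 283 and 358 FPKM with aCSF1R, 37.2, 47.1 and 14.9 FPKM in IL-10-Fc, and 27.8, 9.38 and 51.65 FPKM in BF10. Gzme (ENSMUSG00000022156, chr14:56117626-56120625), the member of the 5 with the smallest decrease, was 132, 108 and 52.3 FPKM in Ctrl-IgG, 95.3, 97.2 and 123 FPKM with aCSF1R, 27.0, 20.9 and 19.3 FPKM in IL-10-Fc, and 14.2, 18.9 and 21.9 FPKM in BF10. In all 3 genes both interleukin-10 groups lay under both other groups, and Ctrl-IgG replicate 3 was the lowest library of its side.

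All 5 of these granzymes fell with BF10 and all 5 with IL-10-Fc. Against Ctrl-IgG, the log2 change with BF10 ran from -2.27 in Gzme (SE 0.32) to -3.36 in Gzmc (SE 0.40), with limma adjusted p-values between 0.000225 and 0.00425. With IL-10-Fc it ran from -1.99 in Gzme (SE 0.32) to -3.39 in Gzmf (SE 0.50), with adjusted p-values between 0.000173 and 0.00553. As ratios of group means, Gzmf was 10.1-fold lower with BF10 and 11.2-fold lower with IL-10-Fc, Gzmc 10.4-fold and 10.1-fold, and Gzme 5.32-fold and 4.36-fold.

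**Figure D1:**
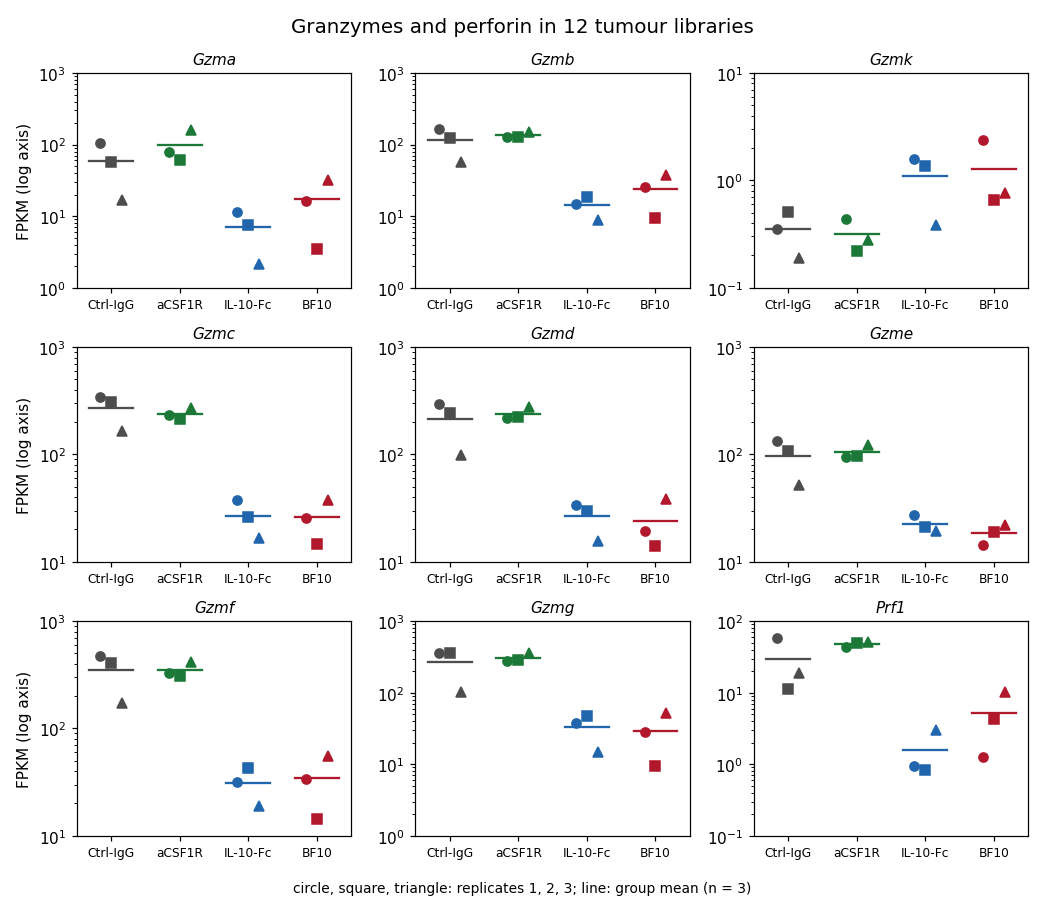
FPKM (log axis) of the 8 granzymes and perforin in each library, by treatment group, with the 3 replicates as circle, square and triangle and the group mean as a line. In 7 of the 9 panels all 6 IL-10-Fc and BF10 points lie under all 6 Ctrl-IgG and aCSF1R points. Gzma overlaps and Gzmk shows the opposite order of group means.

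Over the 9 members, the sides did not overlap in 7, all with the interleukin-10 groups lower, whereas 17.6% of all tested genes had all 6 IL-10-Fc and BF10 libraries under all 6 others. The median log2 change of the 9 was -2.28 with BF10 against Ctrl-IgG, where the median of all tested genes was -0.12, and -2.88 with IL-10-Fc, where it was -0.39. Median-of-ratios scaling moved the second of these medians of all genes to 0.01 and the first to -0.07, and the same number of members was then called with BF10 while Gzma was lost with IL-10-Fc. Without BF10 replicate 3, the library with Y-linked and Rhox5 transcripts, 7 members were likewise called lower with BF10.

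The interleukin-10 groups were also set against aCSF1R, where the same treated libraries meet another reference. With BF10, 8 of 9 members were called lower than with aCSF1R (14.0% of all tested genes), with log2 changes from -2.47 in Gzme (SE 0.32) to -3.60 in Gzmg (SE 0.64). With IL-10-Fc, 8 of 9 were called lower (31.2% of all tested genes), with log2 changes from -2.19 in Gzme (SE 0.32) to -4.34 in Prf1 (SE 0.64). No member was called higher in any comparison, where the share of genes called higher was 11.8% with BF10 and 10.1% with IL-10-Fc against Ctrl-IgG and 11.0% with each against aCSF1R. The Gzma call with BF10 (log2 change -2.77, limma adjusted p 0.0323) was lost without any one of the 3 aCSF1R libraries, BF10 replicate 1 or BF10 replicate 2, with adjusted p-values between 0.0523 and 0.12. In the test for any difference among the 4 groups, 8 of 9 members passed (34.1% of all tested genes) and Gzmk did not (adjusted p 0.148).

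**Figure D2:**
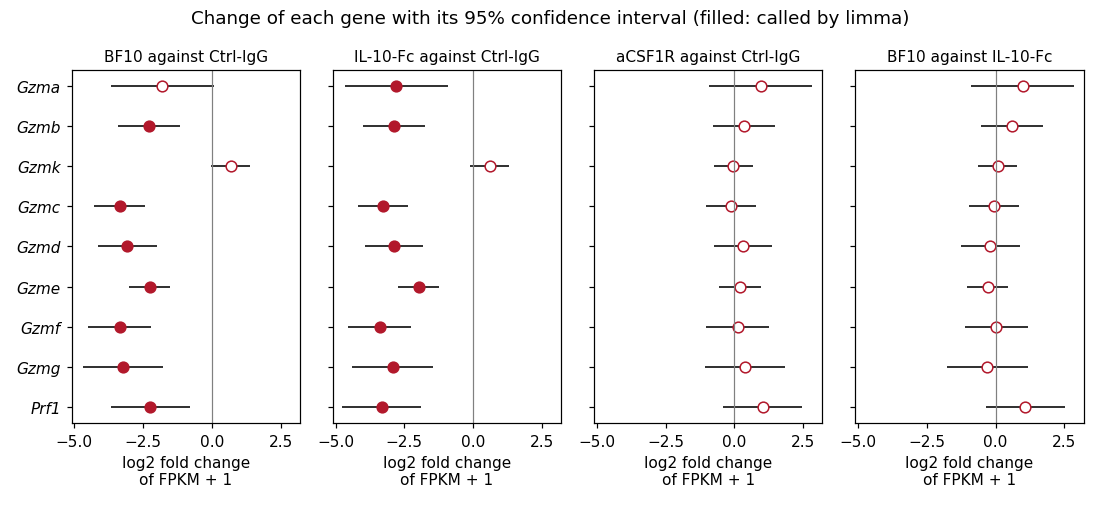
Log2 fold change of FPKM + 1 for each member in 4 comparisons, with the 95% confidence interval from limma as a line and called genes as filled points. With BF10 or IL-10-Fc against Ctrl-IgG all members but Gzmk lie left of 0, and for aCSF1R against Ctrl-IgG and for BF10 against IL-10-Fc every interval spans 0.

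No change of these genes was detectable with the antibody alone. These groups were uneven in tissue, with muscle and keratinocyte transcripts high in Ctrl-IgG replicate 3 and in aCSF1R replicates 1 and 2. The part of that tissue in this comparison was not tested. None of the 9 was called between aCSF1R and Ctrl-IgG (0% of all tested genes), none at an unadjusted limma p under 0.05 (437 of all tested genes were), and the groups overlapped in all 9, where 14.9% of all tested genes did not overlap. Perforin had the largest difference, 1.02 higher with aCSF1R (95% interval -0.38 to 2.43), followed by Gzma with 0.95 (-0.88 to 2.79). Gzmc and Gzmf, which averaged 239 and 352 FPKM with aCSF1R against 270 and 349 FPKM with Ctrl-IgG, differed by -0.11 (-0.99 to 0.76) and 0.13 (-0.99 to 1.24). Over the 9 members the intervals reached from -1.05 in Gzmg to 2.79 in Gzma. The SD was smaller with aCSF1R than with Ctrl-IgG in every member but Gzma, at 4.09 against 24.8 FPKM in Prf1 and 14.9 against 54.5 FPKM in Gzmb, while in Gzma it was 51.2 against 44.3 FPKM.

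Between BF10 and IL-10-Fc, which both carry interleukin-10, none of the 9 was called (0.0126% of all tested genes) and none had an unadjusted limma p under 0.05 (828 of all tested genes did). The groups overlapped in all 9, where 5.18% of all tested genes did not overlap. Perforin averaged 5.23 ± 4.52 FPKM with BF10 and 1.58 ± 1.21 FPKM with IL-10-Fc (SD, n = 3), a difference of 1.08 (95% interval -0.33 to 2.48). Gzma averaged 17.3 ± 14.4 against 7.01 ± 4.68 FPKM, a difference of 0.98 (-0.86 to 2.82), and Gzmb 24.0 ± 13.96 against 14.2 ± 4.95 FPKM, a difference of 0.59 (-0.51 to 1.68). Granzymes C to G differed by between -0.30 and 0.03. BF10 replicate 3 held the highest level of every member but Gzme and Gzmk among the 6 libraries given interleukin-10, and the part of the source of that library in these values was not tested. BF10 was also set against the sum of the differences of aCSF1R and of IL-10-Fc from Ctrl-IgG. It departed in none of the 9 by a call (0.00632% of all tested genes) or an unadjusted limma p under 0.05 (412 of all tested genes). The departures lay between -0.67 in Gzmg and 0.23 in Gzmb. Since the IL-10-Fc difference also carries the source of the tissue, they do not measure whether the components add up.

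Since FPKM is a level per transcript length, the members can be ordered by it. In Ctrl-IgG the means were 349 ± 157 FPKM for Gzmf, 270 ± 93.3 for Gzmc, 269 ± 145 for Gzmg, 212 ± 102 for Gzmd, 115 ± 54.5 for Gzmb, 97.6 ± 41.0 for Gzme, 59.7 ± 44.3 for Gzma, 29.1 ± 24.8 for Prf1 and 0.35 ± 0.16 for Gzmk (SD, n = 3). Above perforin no neighbours in that order differed by more than the larger of their SDs. With aCSF1R the order was Gzmf, Gzmg, Gzmd, Gzmc, Gzmb, Gzme, Gzma, Prf1 and Gzmk, and the steps from Gzmf to Gzmg, Gzmd to Gzmc and Gzme to Gzma were within the larger SD, while the others were not. In BF10 the order was Gzmf, Gzmg, Gzmc, Gzmd, Gzmb, Gzme, Gzma, Prf1 and Gzmk, from 34.6 ± 20.6 down to 1.27 ± 0.98 FPKM, and again no neighbours differed by more than the larger SD. IL-10-Fc put Gzmg first, at 33.1 ± 16.5 FPKM, and Gzme above Gzmb, at 22.4 ± 4.07 against 14.2 ± 4.95 FPKM. That difference and the steps from Gzmb to Gzma and Gzma to Prf1 were larger than the larger SD, and no other step was. In Ctrl-IgG the mean of Gzmf ranked 294th among all genes in the table, and in BF10 it ranked 3115th.

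The 8 granzymes together held between 663 and 1862 FPKM on the side without interleukin-10 and between 84.7 and 276 FPKM on the interleukin-10 side. Within a library a common scale cancels, and granzymes C to G took 87.6% ± 1.9 of the granzyme FPKM with Ctrl-IgG, 84.3% ± 1.7 with aCSF1R, 86.6% ± 1.4 with IL-10-Fc and 77.3% ± 5.9 with BF10 (SD, n = 3). The BF10 libraries were at 73.3%, 84.1% and 74.6%. Replicates 1 and 3 were thus under all 9 other libraries, which ranged from 82.4% to 88.8%, and replicate 2 was among them. The ratio of Gzmf to Gzmb separated BF10 from the rest more fully, at 1.35, 1.53 and 1.49 against between 2.10 and 3.29 in the other 9 libraries. No test was made of these shares, which combine members chosen with results of these data known.

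Gzme kept a larger part of its level than its neighbours. It made up between 6.80% and 7.90% of the granzyme FPKM on the side without interleukin-10 and between 7.95% and 22.3% on the interleukin-10 side, with the highest values in BF10 replicate 2 and IL-10-Fc replicate 3. The ratio of Gzmd to Gzme was between 1.88 and 2.31 in the former and between 0.74 and 1.77 in the latter, without overlap. Gzmd and Gzme share read-length stretches, and the part of read assignment in this ratio was not tested. The ratio of Gzma to Gzmb, from separate loci, ranged from 0.30 to 1.03 and from 0.24 to 0.86 and did not separate the sides.

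**Figure D3:**
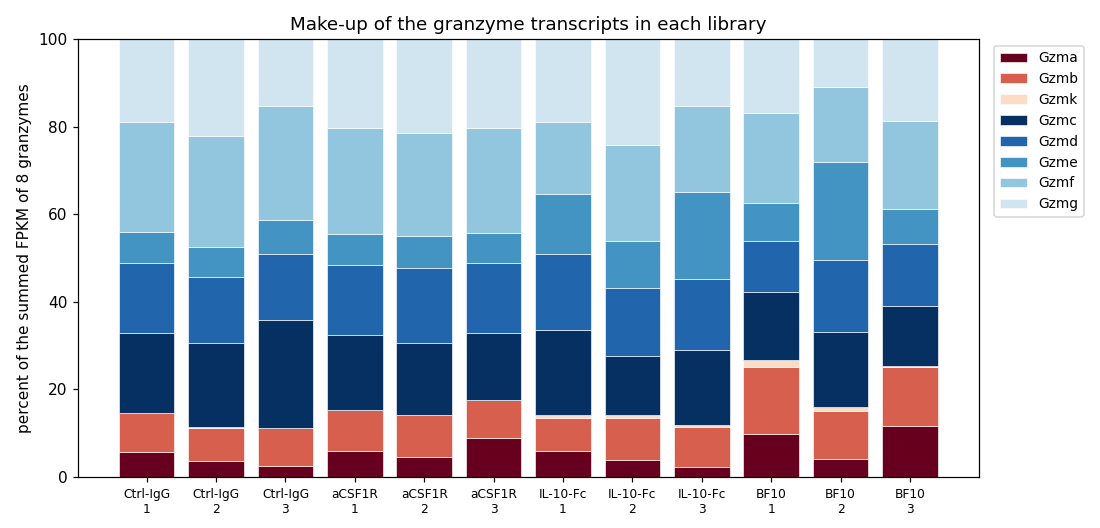
Percent of the summed FPKM of the 8 granzymes taken by each gene (stacked bars from 0 to 100) in the 12 libraries. Granzymes C to G (blue) fill between 73.3% and 88.8% of every bar, Gzmk is barely visible at up to 1.46%, and Gzme widens in IL-10-Fc replicate 3 and BF10 replicate 2.

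Of the few tested genes of the locus outside the granzymes, none was called lower against Ctrl-IgG. Among all tested genes 13.2% with BF10 and 23.6% with IL-10-Fc were, so none among so few is near that share. Of the 15 protein-coding genes from Cma1 to Gzmb on chromosome 14, 7 are granzymes, and the one that is no member, Gzmn, a little-studied granzyme, lies between Gzmg and Gzmf. Gzmn was low but moved the same way, between 0.76 and 1.35 FPKM on the side without interleukin-10 and between 0.13 and 0.49 FPKM in the others, and was called lower with BF10 (log2 change -0.66, limma adjusted p 0.0168) but not with IL-10-Fc (-0.53). The gene next to Gzme, Ctsg (cathepsin G, a protease of myeloid granules), 159.7 kb from the start of Gzmb, overlapped between the sides, with from 0.77 to 4.62 and from 0.83 to 7.75 FPKM, and differed from Ctrl-IgG by 0.11 with BF10 (adjusted p 0.926). Beyond it Mcpt8, a basophil protease, rose by 2.01 with BF10 and 2.36 with IL-10-Fc, and the mast cell proteases Mcpt1 and Mcpt2 rose with IL-10-Fc by 2.51 and 2.80. Mast cell markers moved with these only in part. Tpsab1 reached 0.42 FPKM at most on the side without interleukin-10 and was 4.93 FPKM or more on the other. Hdc differed by -0.85 with BF10 and -0.64 with IL-10-Fc, neither called. Of 6 tested mast cell markers 1 was called higher with BF10 and 3 with IL-10-Fc (11.8% and 10.1% of all tested genes). The list summed to between 7.19 and 26.6 FPKM on the side without interleukin-10. With IL-10-Fc its sum was 134, 19.5 and 54.3 FPKM and with BF10 between 16.75 and 31.1 FPKM, so the sides overlapped. The part of mast cells in the change of these neighbours was not tested. Of the 9 genes listed as locus neighbours or related granzymes, 7 were tested, with 1 called higher and 1 lower with BF10 and 3 higher with IL-10-Fc (11.8%, 13.2% and 10.1% of all tested genes).

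**Figure D4:**
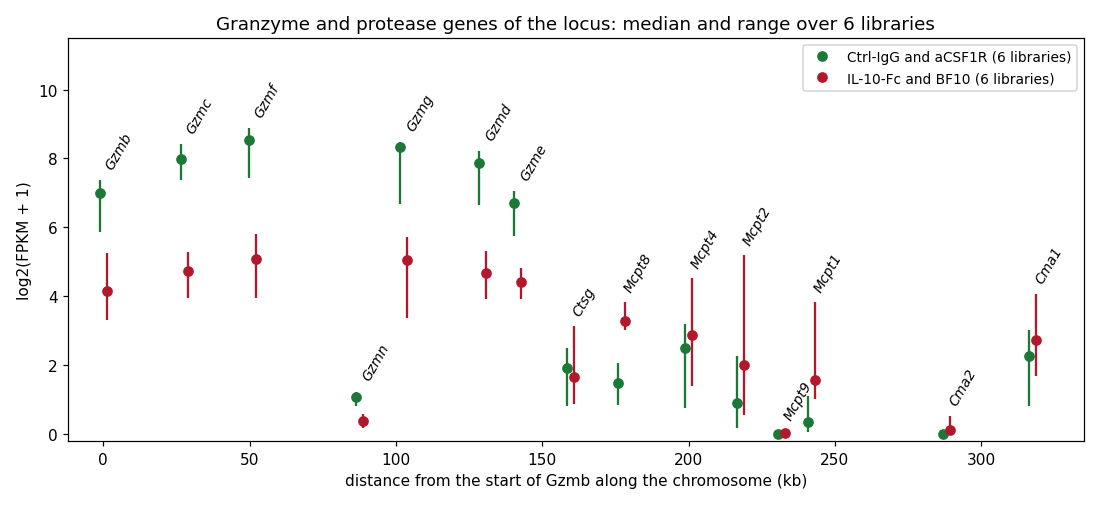
Log2(FPKM + 1) of the protein-coding genes between Gzmb and Cma1, by distance from the start of Gzmb in kb, with the median (point) and range (line) over 6 Ctrl-IgG and aCSF1R libraries and 6 IL-10-Fc and BF10 libraries. The 7 granzymes within 142 kb are lower in the latter without overlap, and from Ctsg onward the genes overlap or are higher.

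Sequence before the start site also runs in blocks. Over the 250 bases before the RefSeq start, the aligned bases of Gzmd, Gzme, Gzmf and Gzmg were identical at between 88.2% and 95.6% and those of Gzmc with these 4 at between 84.4% and 86.5%. Gzmb, with between 57.1% and 68.0%, was no more alike to the 5 than Gzma was to the other granzymes (between 59.7% and 67.6%). The RefSeq start used was at 56262334 for Gzmb and 113180965 for Gzmk. GENCODE places the starts of these genes at 56262260 and 113225908. The likeness and motifs of Gzmb and Gzmk therefore rest on the start chosen. The stretches from -160 to -21 relative to the start are shown for members whose changes are described above (RefSeq, GRCm38.p6, 5′ to 3′ on the strand of the gene). Gzme is left out beside the near-identical Gzmd (95.6%). Gzmg is left out too, although it was less like the Gzmf shown (88.4%) than like Gzme (91.0%). Capitals mark the RUNX core TGTGGT on either strand, which appears as ACCACA on the other, the AP-1 site TGANTCA and the cyclic AMP response element TGACGTCA.
Prf1, chr10:61297676-61297815, plus strand: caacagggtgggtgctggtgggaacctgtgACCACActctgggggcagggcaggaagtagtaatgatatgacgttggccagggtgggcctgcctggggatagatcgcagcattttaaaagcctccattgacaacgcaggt
Gzma, chr13:113101002-113101141, minus strand: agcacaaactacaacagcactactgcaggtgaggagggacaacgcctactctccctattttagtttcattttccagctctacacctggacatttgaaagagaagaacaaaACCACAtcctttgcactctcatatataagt
Gzmb, chr14:56262355-56262494, minus strand: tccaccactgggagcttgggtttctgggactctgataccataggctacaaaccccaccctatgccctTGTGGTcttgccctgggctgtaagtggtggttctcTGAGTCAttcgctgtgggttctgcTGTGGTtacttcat
Gzmc, chr14:56234678-56234817, minus strand: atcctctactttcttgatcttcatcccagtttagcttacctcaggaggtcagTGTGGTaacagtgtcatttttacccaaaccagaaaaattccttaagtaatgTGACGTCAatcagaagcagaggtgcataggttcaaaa
Gzmd, chr14:56132614-56132753, minus strand: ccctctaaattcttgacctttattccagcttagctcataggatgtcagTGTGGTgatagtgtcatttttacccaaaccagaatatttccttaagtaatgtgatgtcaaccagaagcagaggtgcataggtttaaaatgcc
Gzmf, chr14:56211428-56211567, minus strand: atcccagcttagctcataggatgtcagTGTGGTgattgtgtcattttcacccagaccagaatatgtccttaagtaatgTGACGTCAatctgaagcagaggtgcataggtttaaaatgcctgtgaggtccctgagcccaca

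The RUNX core, the motif of the Runx factors that act in killer cells, was present in the 250 bases of 8 of 9 members (all but Gzmk) and of 14.05% of 32851 mouse promoters of the same length. The cyclic AMP response element was present in Gzmc, Gzmf and Gzmg and in 1.55% of all promoters, and the AP-1 site in Gzmb alone and in 6.75%. The ETS core GGAAGT was found in 7 of 9 members, all but Gzma and Gzmb, and in 19.7% of promoters. The T-box element GTGTGA, the E-box CAGGTG, the palindrome TTCNNNGAA and TATAAA were in 2, 2, 0 and 0 members and in 12.3%, 17.2%, 7.02% and 12.4% of promoters. Each motif was searched on both strands. The cyclic AMP response element was added after the sequences were seen, promoters of 1 cluster are copies rather than independent examples, and a match is a description only.

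Other genes of the killer granule did not move as a block. Calls of listed genes are given against Ctrl-IgG unless aCSF1R is named. Among all tested genes, 11.8% were called higher and 13.2% lower with BF10, and 10.1% and 23.6% with IL-10-Fc. The counts of each list are to be read beside these shares. Of 14 listed granule genes, 13 were tested, and with BF10 against Ctrl-IgG 5 were called higher and 1 lower, with a median change of -0.05 where that of all tested genes was -0.12. Ctsc, the cathepsin that activates granzymes by trimming them, was between 35.6 and 112 FPKM on the side without interleukin-10 and between 165 and 251 FPKM in the others and rose by 1.46 with BF10 (SE 0.27, limma adjusted p 0.0026). Srgn, the serglycin core that packs them and that myeloid cells also make, rose by 0.99, and Unc13d and Stxbp2, parts of the release machinery, rose by 2.05 and 2.82. Stx11, a fusion protein of granule release, fell by 1.40. Nkg7, a granule membrane protein of NK and T cells, was between 12.6 and 30.45 FPKM against between 5.58 and 18.8 FPKM, fell by 1.57 with IL-10-Fc (adjusted p 0.00348) and differed by -0.60 with BF10 (adjusted p 0.201). With IL-10-Fc, 4 of the 13 were called higher and 5 lower.

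Among the transcription factors known to drive killer genes, 8 of 10 were tested, and against Ctrl-IgG 2 of the 8 were called lower with each interleukin-10 protein and none higher, where 13.2% of all tested genes were called lower with BF10 and 23.6% with IL-10-Fc. The count with IL-10-Fc is thus near the share over all genes. Eomes, a T-box factor of NK and T cells, was between 5.19 and 7.29 FPKM on the side without interleukin-10 and between 0.30 and 1.70 FPKM in the others, with log2 changes of -1.86 with BF10 (SE 0.22, limma adjusted p 0.000208) and -2.44 with IL-10-Fc. Hopx, a homeodomain cofactor, was between 14.6 and 39.0 FPKM against between 2.71 and 8.22 FPKM and fell by 1.94 with BF10. BF10 replicate 3 was the highest of its side in both, as it was in Prf1. Tbx21, the other T-box factor, was at most 0.60 FPKM in every library and was not tested, and Runx3 overlapped, from 1.08 to 6.39 against from 1.39 to 8.18 FPKM. Of 4 factors that restrain the killer state, 3 were tested and none was called with BF10, while Lef1 fell by 1.40 with IL-10-Fc.

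Of 11 cytokine and receptor genes upstream, 8 were tested and 0 called higher. Called lower were 1 with BF10 and 2 with IL-10-Fc (13.2% and 23.6% of all tested genes). Against aCSF1R these counts were 1 and 5 (14.0% and 31.2% of all tested genes). Il2rg, a receptor chain, fell by 1.00 with IL-10-Fc against Ctrl-IgG (limma adjusted p 0.0433). Il2rb, the receptor chain shared by interleukin-2 and interleukin-15, was between 7.20 and 23.9 FPKM on the side without interleukin-10 and between 1.40 and 8.89 FPKM in the others, fell by 2.03 with IL-10-Fc (limma adjusted p 0.00848) and differed by -0.91 with BF10 (adjusted p 0.206). Il15 fell by 1.18 with BF10. Il10ra and Il10rb, the receptor of interleukin-10, were called with neither protein against Ctrl-IgG, while Il10rb was called lower with IL-10-Fc than with aCSF1R (log2 change -1.42, limma adjusted p 0.0294). Among other killer molecules, 4 of 5 were tested and none was called with either protein against Ctrl-IgG, while Tnf was called lower with IL-10-Fc than with aCSF1R (log2 change -1.23, limma adjusted p 0.0132). Ifng was between 1.51 and 2.57 against between 0.89 and 2.46 FPKM, and Fasl was between 0.84 and 1.14 against between 0.32 and 0.87 FPKM.

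No inhibitor of granzymes was called lower. Of 6 serpins, 1 was called higher with BF10 and 2 with IL-10-Fc (11.8% and 10.1% of all tested genes). Serpina3g, an inhibitor of cathepsins and granzyme B in immune cells, was between 16.7 and 30.8 FPKM against between 52.5 and 89.8 FPKM and rose by 1.17 with BF10 (limma adjusted p 0.00408). Serpinb9, the granzyme B inhibitor, differed by 0.02 with BF10 (adjusted p 0.986). Among 7 proteins that granzymes or the death pathway act on in target cells, 1 was called lower with BF10 (13.2% of all tested genes, so near that share), with 1 higher and 3 lower with IL-10-Fc (10.1% and 23.6%). The 1 was Dffb, a nuclease that cuts DNA in dying cells, at between 62.7 and 178 FPKM against between 0.78 and 28.5 FPKM, and Gsdme, which granzyme B can cleave, was between 3.44 and 6.49 FPKM in all 12 libraries.

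T cells carry granzymes, and none of their markers was called lower against Ctrl-IgG. Of 15 T cell markers, 13 were tested. With BF10, where 11.8% of all tested genes were called higher, 4 of these markers were (Cd3g, Trac, Trbc2 and Cd8a), and with IL-10-Fc none was called. Against aCSF1R, 5 were called higher with BF10 (11.0% of all tested genes). With IL-10-Fc 1, Zap70, was called lower (log2 change -1.05, limma adjusted p 0.0454), where 31.2% of all tested genes were. The sum of the markers was between 50.5 and 66.6 FPKM on the side without interleukin-10, between 44.0 and 65.1 FPKM in IL-10-Fc, and 74.4, 179 and 146 FPKM in BF10. The ratio of Gzmb to Cd3e, an invariant chain of the T cell receptor, was between 34.4 and 134 in the former and between 0.835 and 39.2 on the interleukin-10 side, where only IL-10-Fc replicate 2 reached into the range of the former. BF10 replicate 2 had the highest T cell sum and, at 84.7 FPKM, the lowest granzyme sum of all 12 libraries. BF10 replicate 3 had the next highest T cell sum and, at 276 FPKM, the highest granzyme sum of the interleukin-10 side. In bulk tissue, fewer granzyme-bearing cells and less granzyme RNA per cell cannot be told apart.

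NK cells, the other carriers, overlapped between the sides in their summed markers. All 8 markers were tested and 1, Klra8, was called lower with each protein. That count is no higher than the share of all tested genes called lower (13.2% with BF10 and 23.6% with IL-10-Fc). The median change of the list was -0.82 with BF10 and -0.69 with IL-10-Fc, where all tested genes had -0.12 and -0.39. Their sum was between 30.1 and 96.2 FPKM on the side without interleukin-10 and between 15.2 and 60.3 FPKM in the others. Klra8, which encodes an activating NK receptor of C57BL/6 mice, was between 1.51 and 5.62 FPKM in the former and at 0 in the 3 IL-10-Fc libraries and BF10 replicate 2, with 0.11 and 0.65 FPKM in BF10 replicates 1 and 3. Ncr1, the NK marker shared by strains, ran from 1.47 to 7.74 FPKM and from 1.02 to 7.86 FPKM. The ratio of Gzmb to Klrd1, an NK receptor chain, was between 3.69 and 11.1 against between 0.90 and 3.15, with no overlap between the sides. The part of the NK cells and of their strain in the granzyme result was not tested.

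**Figure D5:**
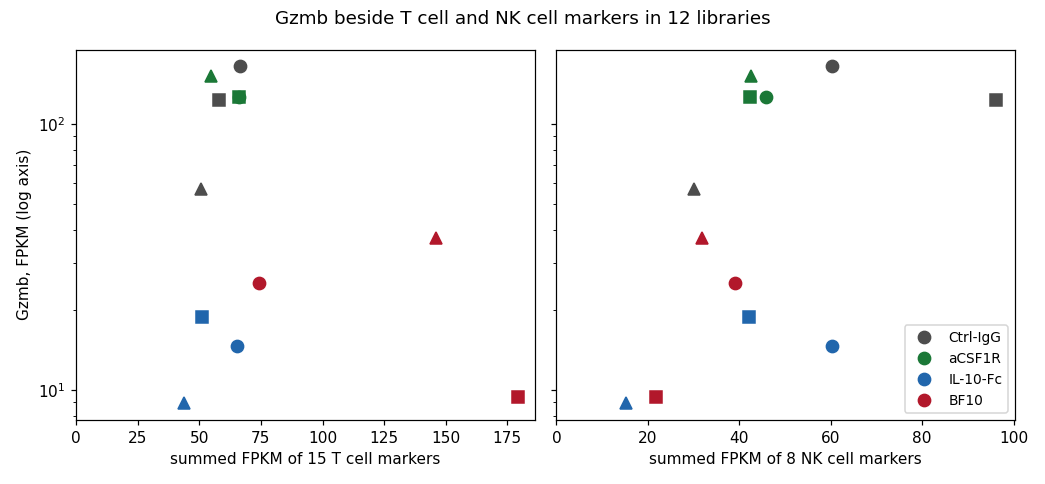
Gzmb (FPKM, log axis) against the summed FPKM of 15 T cell markers (left) and 8 NK cell markers (right) in 12 libraries, coloured by group, with replicates 1 to 3 as circle, square and triangle. At a T cell sum of between 44.0 and 66.6 FPKM Gzmb spans 8.95 to 165 FPKM, BF10 replicates 2 and 3 stand apart at high T cell sums, and NK sums overlap between groups.

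Other tissue in the samples moved in part with the members. Muscle markers summed to between 755 and 1220 FPKM and squamous keratinocyte markers to between 1487 and 2020 FPKM in Ctrl-IgG replicate 3 and aCSF1R replicates 1 and 2, against at most 119 and 36.6 FPKM in the other 9. Ctrl-IgG replicate 3 held the least Gzma, Gzmb and granzymes C to G of its side, and aCSF1R replicates 1 and 2 were under aCSF1R replicate 3 in every member but Gzmk. The part of that tissue in these levels was not tested. Without these 3 libraries, an analysis chosen after the values were seen, 6 of 9 members were called lower with BF10 than with Ctrl-IgG and 8 with IL-10-Fc, while against aCSF1R, then a single library assumed to vary like the other groups, 4 were called with BF10 and 6 with IL-10-Fc. Markers of macrophages, the cells that carry CSF1R, summed to between 236 and 757 FPKM on the side without interleukin-10 and to between 786 and 1241 FPKM in the others.

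Over the 12 libraries the 5 granzymes C to G ran closely together, with Pearson's r of log2(FPKM + 1) between 0.95 and 0.99 for their 10 pairs. After the mean of each side was removed, r was between 0.59 and 0.97. Gzmb followed them with r between 0.93 and 0.99 and Gzma with r between 0.86 and 0.93, while Gzmk ran against all the other members, with r between -0.80 and -0.37, which became between -0.52 and 0.49 within sides. The genes whose profile was most like the mean z-scored profile of granzymes C to G were Brinp3, Trim34a, Usp18, Ghitm and Trim5, with r between 0.979 and 0.984. Those most like the mean of Gzma, Gzmb and Gzmk, a mean that joins opposite profiles, were Agmo, Kitl, Mrpl53, Ccl7 and Cav1, with r between 0.875 and 0.90. Usp18, an interferon-induced protease, was between 60.1 and 86.9 FPKM on the side without interleukin-10 and between 11.98 and 23.5 FPKM in the others. All of these r values carry the split between the 2 sides of 6 libraries and are descriptions with no test.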

How the data were processed

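RNA from 12 tumour libraries was sequenced from stranded mRNA preparations on an Illumina NextSeq instrument. The authors deposited FPKM values (fragments per kilobase of transcript, scaled to library size) with 2 decimals. The submitters' processing notes name STAR 2.7.5a, RSEM 1.3.3 and DESeq2 1.30.0 and the build GRCm38. Tables of the authors' own DESeq2 comparisons (fold changes and p-values) were not used.

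Groups came from the treatment labels. Replicate numbers follow sample order. The labels do not say that libraries came from separate animals, so p-values measure the spread between these samples. Values were tested as log2(FPKM + 1) over 15813 genes that reached 1 FPKM in 3 or more libraries, with limma 3.58.1 in R 4.3.3 (all 12 libraries in one model, intensity trend, Benjamini-Hochberg), after tests on simulated data. Calls needed an adjusted p under 0.05 and a fold of at least 1.5. Read depth was estimated from the steps between low values, of which between 70.5% and 74.5% fell within 0.15 of a whole read. No pair of libraries was identical. Positions are from GENCODE M21 and promoters from RefSeq, where all 9 members matched by symbol. All 9 members were named, and genes of listed pathways and markers could be. The genes most alike were the 5 with the highest r for each of 2 mean profiles, leaving out predicted genes, pseudogenes and immunoglobulin segments. Members and lists were chosen with earlier results of these data known.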

Additional observations from a re-analysis of the deposited data

How the results depend on the processing

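Of 31 changes of a member called in one of the comparisons, all kept their direction in the 465 values under alternative analyses, and 437 kept the call. Of the 28 lost calls, 9 were those of Gzma with BF10 against aCSF1R, 7 those of Gzma with IL-10-Fc against Ctrl-IgG and 7 those of Prf1 with BF10 against Ctrl-IgG, and all the others, in Gzma, Gzmb, Gzmg and Prf1 against aCSF1R, came from leaving out the libraries rich in muscle and keratinocyte transcripts. The number of members called ranged from 6 to 8 with BF10 against Ctrl-IgG, from 7 to 8 with IL-10-Fc against Ctrl-IgG, from 4 to 8 with BF10 against aCSF1R, from 6 to 9 with IL-10-Fc against aCSF1R and from 7 to 9 for any difference. It was 0 in every alternative run for the comparison of aCSF1R to Ctrl-IgG, that of BF10 to IL-10-Fc and the departure from the sum. The count of 4 came from leaving out those 3 libraries, chosen after the data were seen, which leaves 1 aCSF1R library. Without BF10 replicate 3, 7 members were called with BF10 against Ctrl-IgG and 8 against aCSF1R.

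Without Gzmd, Gzme and Gzmg, the share of the remaining Gzmc and Gzmf in the granzyme FPKM was 78.9% with Ctrl-IgG, 71.9% with aCSF1R, 72.8% with IL-10-Fc and 60.9% with BF10. Leaving out single libraries moved the share of granzymes C to G to between 87.1% and 88.7%, between 83.6% and 85.2%, between 85.8% and 87.0% and between 73.9% and 79.3% in the same order of groups. No paired analysis was possible because the replicate numbers follow sample order and the codes in the sample titles are shared by too few groups. Gzmk was not tested where the filter lost it, that is in the groups compared alone, with a mean of at least 1 FPKM, without IL-10-Fc replicate 1 or 2, without BF10 replicate 1 or without the 4 libraries of highest FPKM sum. Precision rests on 3 libraries a group, and values near 0.04 FPKM rest on about 1 read.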
